A study of Mus musculus with 10 samples.

Results

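The MTA paralogues are 3 mouse genes, Mta1, Mta2 and Mta3, taken by gene symbol from the 23420 genes of the deposited count tables. All 3 passed the filter on low counts, which left 14161 genes tested. They were followed across 10 RNA-seq libraries of sorted bone marrow cells from C57BL/6 mice: pro-B control (n = 2), pro-B Mta2 knockout (n = 2), small pre-B control (n = 3) and small pre-B Mta2 knockout (n = 3). Pro-B cells were sorted as B220+, IgM- and CD43+, and small pre-B cells as B220+, IgM- and CD43- cells of small scatter. The knockout is labelled Mta2_VavKO, after the Vav promoter, which is active across blood cells and so is not restricted to the B lineage. The labels do not say which exons the deletion removes, what the controls carry, or the age, sex or litter of the animals, so p-values measure the spread between libraries, which may in part be technical.

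MTA proteins are scaffold subunits of NuRD, a chromatin complex that joins a CHD remodelling ATPase to the histone deacetylases HDAC1 and HDAC2. Through its ELM2 and SANT domains an MTA protein binds and activates the deacetylase, and its C-terminal part binds the histone chaperones RBBP4 and RBBP7. The paralogues are thought to take the same place in the complex in place of one another. The comparisons below ask how much Mta2 RNA was left in each knockout population and whether Mta1 or Mta3 RNA stood higher there.

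The genes lie on 3 chromosomes, with positions in build mm10 as the files give them. Mta1 spans chromosome 12 from 113098278 to 113137206 on the plus strand, with 20 exons and 2775 bases of exon. Mta2 spans chromosome 19 from 8941920 to 8952300 on the plus strand, with 18 exons and 3087 bases of exon. Mta3 spans chromosome 17 from 83706163 to 83814905 on the plus strand, with 17 exons and 3059 bases of exon. No other gene in the files overlapped the span of a member, so strand did not bear on their counts. Of all stretches of 50 bases in their annotated transcripts, 0 of 3289 in Mta1, 0 of 4134 in Mta2 and 7 of 5492 in Mta3 also occurred in another gene, and none was shared between the paralogues. Reads of one paralogue could therefore be told from those of the others.

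The promoters are shown because the series pairs Mta2 with OCA-B, a B-cell coactivator that works through octamer elements. RefSeq (GRCm38.p6) held a promoter for Mta1 and for Mta2, and Mta3 was not matched. Each is printed 5′ to 3′ on the plus strand, and capitals mark the octamer ATGCAAAT and the ETS-type motif CCGGAAGT. The Mta1 promoter is chr12:113098028-113098327 and the Mta2 promoter is chr19:8941670-8941969.
Mta1: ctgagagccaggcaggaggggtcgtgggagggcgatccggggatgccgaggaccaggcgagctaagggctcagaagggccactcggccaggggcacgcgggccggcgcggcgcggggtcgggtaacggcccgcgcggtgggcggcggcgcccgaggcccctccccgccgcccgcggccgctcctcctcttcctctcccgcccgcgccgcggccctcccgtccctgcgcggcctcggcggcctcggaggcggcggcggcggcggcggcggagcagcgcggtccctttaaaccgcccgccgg
Mta2: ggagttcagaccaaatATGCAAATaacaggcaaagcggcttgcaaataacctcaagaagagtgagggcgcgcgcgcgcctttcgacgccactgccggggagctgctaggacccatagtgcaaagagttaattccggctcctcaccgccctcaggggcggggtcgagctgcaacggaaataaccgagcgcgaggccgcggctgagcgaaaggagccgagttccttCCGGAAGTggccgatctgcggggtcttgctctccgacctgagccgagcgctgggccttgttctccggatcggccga

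Both motifs and the GC box GGGCGG were chosen after the sequences were seen and were searched on both strands. The Mta2 promoter held 1 octamer, whose first base lies 234 bases before the start of transcription, and 1 ETS-type match, 26 bases before it. The octamer occurred in 1.74% and the ETS-type motif in 3.89% of the 32817 promoters of the same length. Neither motif was found in the 300 bases of Mta1. GC boxes, found in 35.6% of promoters, numbered 2 in Mta2 and 4 in Mta1. The Mta1 promoter had 50 CpG dinucleotides, more than 99.1% of promoters, and Mta2 had 30, more than 88.3%, against a median of 7. These matches describe the letters in the window and are not evidence of binding.

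Total counts ran from 17805507 to 52127004 per library, higher in the 4 pro-B libraries, and 3 counts corresponded to 0.0540 to 0.173 CPM, the count scaled to library size by the trimmed mean of M values (TMM). The lowest count of a member was 1002, with an exact 95% Poisson half-width of 1.30% to 6.24% of the count, which covers counting error only. Small pre-B control 3 stood apart from the other controls of its group: the chi-square per degree of freedom over genes was 216 and 227 against them, and 22.8 to 49.0 for every other replicate pair. Its file header also carries another number than its title, namely the one in the titles of small pre-B control 2 and knockout 2. Xist RNA reached 2518 and 2942 CPM in small pre-B knockout 1 and 2 and was at 31.4 CPM or less in the other 8 libraries. High Xist thus lay only on the knockout side of the small pre-B comparison, and its part in the results was not tested. Values without these libraries stand beside the small pre-B results below.

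The markers of the sorted cells and of other cell types were summed for each library. The 7 B-lineage markers, such as Cd79a and Pax5, summed to 1503 to 1689 CPM in pro-B controls, 1061 to 1429.7 in pro-B knockouts, 5518 to 6451 in small pre-B controls and 5250.2 to 6816 in small pre-B knockouts. All were detected, so the labelled lineage was present in every group. The 7 pro-B markers summed to 1148 to 1330, 1481 to 1635, 183 to 829 and 857 to 1857 CPM in the same order of groups. The 8 small pre-B and immature B markers summed to 2243 to 2429, 2373 to 2618, 6456 to 9544 and 5308 to 7294 CPM. In small pre-B knockouts edgeR called 1 of the 7 higher, Kit, with group means of 9.80 and 56.4 CPM (adjusted p = 0.0317). It called 1 of the 8 lower, Il2ra, at 356 and 139 CPM (adjusted p = 0.0259). Over all genes 1.89% were called higher and 1.14% lower. The median log2 fold changes of the lists were 1.27 and -0.26. An unadjusted p under 0.05 was found for 5 and 3 genes, and for 3495 of all 14161 tested genes. Myeloid markers, with 9 of 10 in the files, summed to 6299 to 6487 CPM in pro-B controls and 10151 to 15062 in pro-B knockouts, but 103 to 263 and 196 to 376 in the small pre-B groups. T-cell markers, with 8 of 9 in the files, were at 339 to 410 and 477 to 517 CPM in the pro-B groups, and at 6.88 to 18.1 in small pre-B controls and 56.1 to 92.3 in knockouts, where 6 of 8 rose by edgeR (1.89% of all tested genes did), 7 by DESeq2 and 6 by limma-voom. With a library left out edgeR called 6 without small pre-B control 2, 5 without control 3, 3 without knockout 3, 1 without knockout 2 and 0 without any one of the others. The 6 plasmacytoid dendritic markers, at 3343 to 3613, 3525 to 3871, 300 to 355 and 409 to 444 CPM, and the 6 NK markers, at 379 to 442, 263 to 445, 9.18 to 103 and 73.0 to 131, were again highest in pro-B libraries. Single genes made up much of some sums. Tcf4 alone had a mean of 299 CPM in small pre-B controls, and Cd4 alone 265 CPM in pro-B controls. In pro-B knockouts the means of Siglech, Bst2, Tcf4 and Ccr9 were higher than in controls. Klk1 instead went from 85.4 to 7.01 CPM and Cd209d from 53.8 to 5.06 (edgeR adjusted p = 0.331 and 0.292). Erythroid markers ranged from 364 to 577 CPM over all libraries, with Hba-a1 at 0, and plasma-cell markers from 51.1 to 134. The part of these other cells, and of the differences in stage markers, in the results below was not tested.

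Mta2 RNA was lower in the knockout libraries of both cell types but was far from absent. In pro-B controls Mta2 had 22811 and 20859 counts, or 436 and 375 CPM, and in pro-B knockouts 8931 and 8351 counts, or 163 and 166 CPM. The groups did not overlap, as was true of 28.1% of all tested genes in that direction with 2 libraries against 2. The fitted knockout level was 40.5% of control (95% interval 27.9 to 58.6), a log2 fold change of -1.31 (SE 0.24). This did not pass the threshold of 0.05 over all genes (unadjusted p = 0.000344, adjusted p = 0.212, edgeR's quasi-likelihood test), in a comparison where 0.0353% of genes were called higher and 0% lower (913 genes had an unadjusted p under 0.05, and DESeq2 called 182 and limma-voom 148 in either direction). With only the 4 pro-B libraries in the model, or with DESeq2 or limma-voom, adjusted p was 0.00113, 0.000254 and 0.0358. Without small pre-B control 2 edgeR's adjusted p was 0.0115. That library is in neither pro-B group and enters through the filter, the scaling and the shared estimate of spread.

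In small pre-B controls Mta2 had 7853, 6118 and 14508 counts, or 438, 246 and 412 CPM. In small pre-B knockouts it had 3447, 4541 and 4253 counts, or 199, 179 and 198 CPM. Every knockout library lay below every control, as for 11.7% of all tested genes, although control 2 came much nearer to the knockouts than the other controls. The log2 fold change of Mta2 was -0.93, with an SE of 0.19, and it fell past the threshold (adjusted p = 0.042, edgeR's quasi-likelihood test), which left 52.6% of the control level (95% interval 39.0 to 71.0). In this comparison 1.89% of genes were called higher and 1.14% lower. The call was lost in 11 of 18 alternatives, among them the omission of any 1 library other than control 2, with adjusted p at or below 0.126. Without control 2 the Mta2 change was -1.15 (adjusted p = 0.00145), with 45.1% left. In that fit 1667 genes were called, against 428 with all libraries. Without control 3 the Mta2 change was -0.83 (adjusted p = 0.066). Without knockout 1 or 2, the libraries with high Xist, it was -0.95 and -0.88.

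The residual level was similar in size in both knockout populations. Per kilobase of exon, as RPKM (CPM divided by kilobases of exon), Mta2 stood at 53.1 ± 0.713 (SD, n = 2) in pro-B and 62.3 ± 3.58 (SD, n = 3) in small pre-B knockouts, against 131 ± 13.9 (SD, n = 2) and 118 ± 33.6 (SD, n = 3) in their controls. Even in the knockouts this was above 89.4% and 91.4% of tested genes. The knockout effects of the 2 cell types differed by 0.38 on the log2 scale (95% interval -0.30 to 1.06, adjusted p = 0.809). No gene was called for this difference (0% by edgeR and 0 genes by limma-voom, 58 by DESeq2, and 907 at an unadjusted p under 0.05). Because the files give 1 count per gene, transcripts that keep the remaining exons, cells that escaped deletion and cells of other lineages cannot be told apart as sources of these counts. In such bulk samples fewer cells of a type and less RNA per cell cannot be told apart either.

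**Figure D1:**
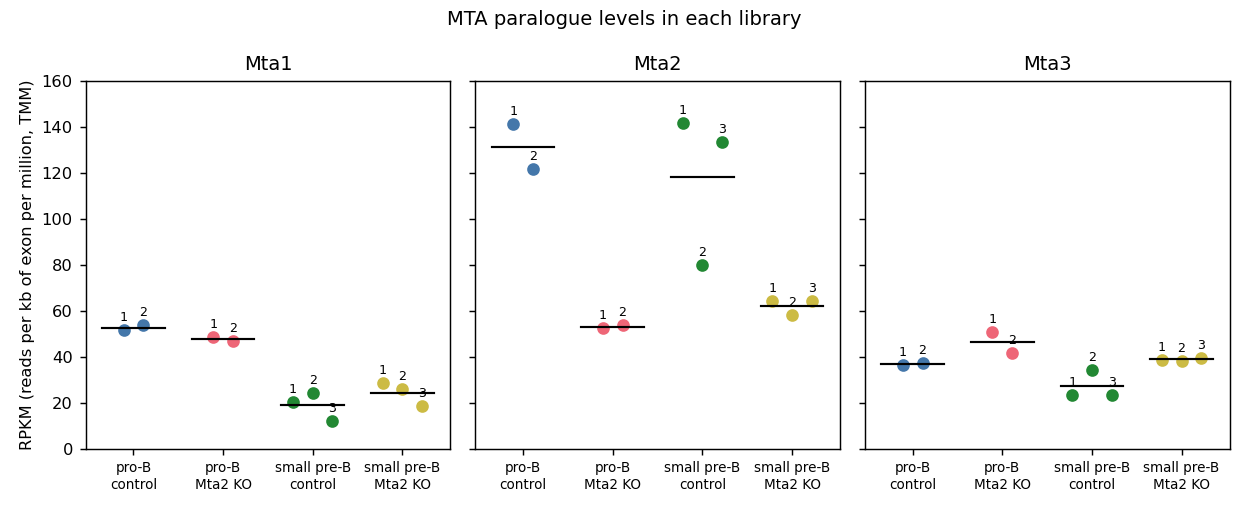
RPKM of Mta1, Mta2 and Mta3 (y axis, 1 panel a gene) in each of the 10 libraries by group (x axis), with points numbered by replicate and lines at group means. Mta2 points of the knockouts lie between 52.6 and 64.4 RPKM, below every control, and small pre-B control 2 is the lowest Mta2 control at 79.8 RPKM.

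Mta3, the paralogue known for its part in germinal-centre B cells, stood higher in the knockout libraries of both cell types, though neither difference passed the test. Its counts were 5834 and 6338 in pro-B controls and 8520 and 6444 in pro-B knockouts, or 111 and 114 against 155 and 128 CPM. Both knockouts lay above both controls, as for 27.4% of tested genes, and they differed more from each other than did the controls. The fitted log2 fold change was 0.33 (SE 0.19, 95% interval -0.09 to 0.75, adjusted p = 0.956, edgeR). It was 0.18 without knockout 1 and 0.46 without knockout 2.

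In small pre-B cells Mta3 had 1290, 2613 and 2537 counts in controls and 2056, 2970 and 2590 in knockouts, or 71.9, 105 and 72.1 against 119, 117 and 121 CPM. All 3 knockouts exceeded all 3 controls, as for 13.3% of tested genes, and control 2 was again the control nearest to them. The fitted log2 fold change was 0.52 (SE 0.15), or 143% of control (95% interval 113 to 182), with an unadjusted p of 0.00794 and an adjusted p of 0.0928. It passed with DESeq2 (0.50, adjusted p = 0.0311) and without control 2 (0.72, adjusted p = 0.00703). Calls were also more common there, with 1869 genes by DESeq2 and 1667 without control 2, against 428 in the main fit. Without control 1 or control 3 it was 0.42, and without knockout 1 or 2 it was 0.52 and 0.53. The effects in the 2 cell types differed by 0.19 (95% interval -0.35 to 0.73, adjusted p = 0.862).

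Mta1, the founding member of the family, showed no direction common to both cell types. Pro-B controls had 7481 and 8275 counts and pro-B knockouts 7434 and 6563, or 143 and 149 against 135 and 130.2 CPM. The knockouts lay just below the controls, as for 28.1% of tested genes. The fitted log2 fold change was -0.14 (SE 0.29, 95% interval -0.79 to 0.52, adjusted p = 1). In small pre-B cells the counts were 1002, 1674 and 1191 in controls and 1377, 1838 and 1096 in knockouts, or 55.9, 67.4 and 33.8 against 79.4, 72.6 and 51.1 CPM. These groups overlapped, since knockout 3 lay below controls 1 and 2. The fitted log2 fold change was 0.37 (SE 0.24, 95% interval -0.17 to 0.91, adjusted p = 0.362). It was 0.13 without control 3, 0.24 without knockout 1, 0.32 without knockout 2 and 0.59 without control 2. The difference of the 2 effects was 0.51 (95% interval -0.34 to 1.36, adjusted p = 0.80).

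**Figure D2:**
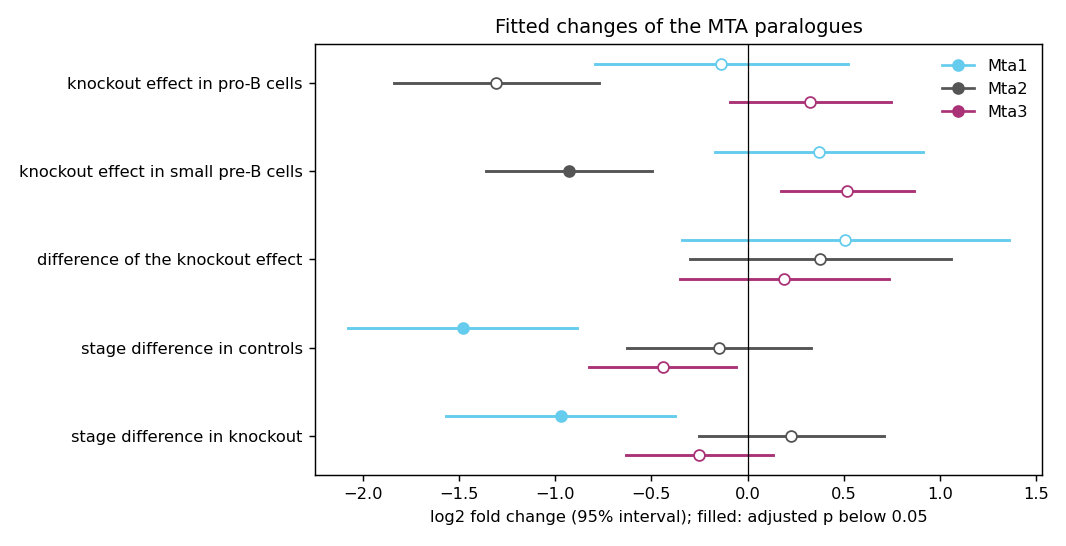
Fitted log2 fold change (x axis) with its 95% interval for each paralogue in each of the 5 comparisons (y axis), where filled points had an adjusted p below 0.05. The Mta2 intervals lie wholly below 0 in both cell types, the Mta3 interval lies above 0 in small pre-B cells (0.17 to 0.86), and all 3 intervals for the difference of the effects span 0.

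Per length, Mta2 was the most abundant paralogue in every library. In pro-B controls it led with 131 RPKM, before Mta1 at 52.6 ± 1.52 and Mta3 at 36.9 ± 0.595 (SD, n = 2), and no 2 of the 3 ranges overlapped. In pro-B knockouts Mta2 at 53.1, Mta1 at 47.8 ± 1.30 and Mta3 at 46.2 ± 6.29 RPKM (SD, n = 2) lay close together, and the ranges of Mta1 and Mta3 overlapped. In small pre-B controls Mta2 at 118 RPKM was followed by Mta3 at 27.2 ± 6.28 and Mta1 at 18.9 ± 6.15 (SD, n = 3), whose ranges overlapped. In small pre-B knockouts the order was Mta2 at 62.3, Mta3 at 38.9 ± 0.561 and Mta1 at 24.4 ± 5.33 RPKM (SD, n = 3), with no overlap.

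The makeup of the summed MTA RNA differed accordingly, and these sums, shares and ratios are descriptions with no test. The summed RPKM of the paralogues was 221 ± 11.7 (SD, n = 2) in pro-B controls and 147 ± 6.88 in pro-B knockouts, so the knockout sum was 66.7% of the control. In small pre-B cells the sum was 164 ± 23.8 (SD, n = 3) in controls and 126 ± 5.45 in knockouts, or 76.3%. Mta2 made up 59.4% of the sum in pro-B controls, 36.2% in pro-B knockouts, 71.0% in small pre-B controls and 49.6% in small pre-B knockouts. The share of Mta3 was 16.7%, 31.3%, 17.1% and 31.0% in the same order, and that of Mta1 was 23.9%, 32.5%, 11.9% and 19.4%. As shares of 1 sum, those of Mta3 and Mta1 rise wherever Mta2 falls, also at an unaltered level.

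The differences of the other paralogues were smaller in size than that of Mta2, and none of them passed the test. In pro-B cells Mta2 fell by 78.2 RPKM between group means, Mta3 was 9.37 higher and Mta1 was -4.76 relative to control. The net 4.61 RPKM came to 5.89% of the Mta2 difference, and Mta3 alone to 12.0%. These shares rest on single libraries: without knockout 1 the net was -0.759 RPKM and Mta3 alone came to 6.33%, and without knockout 2 the net was 9.98 RPKM (12.7%) and Mta3 alone came to 17.6%. In small pre-B cells Mta2 fell by 56.1 RPKM, while Mta3 was 11.7 and Mta1 5.53 RPKM higher. Together these 17.2 RPKM came to 30.7% of the Mta2 difference, or 24.9% to 36.1% with a library of that cell type left out, and Mta3 alone to 20.9% (at most 22.3%). In no library did the knockout sum reach the lowest sum of its controls: pro-B knockouts had 142 and 152 RPKM against 213 and 229, and small pre-B knockouts 122 to 132 against 185, 139 and 169.

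**Figure D3:**
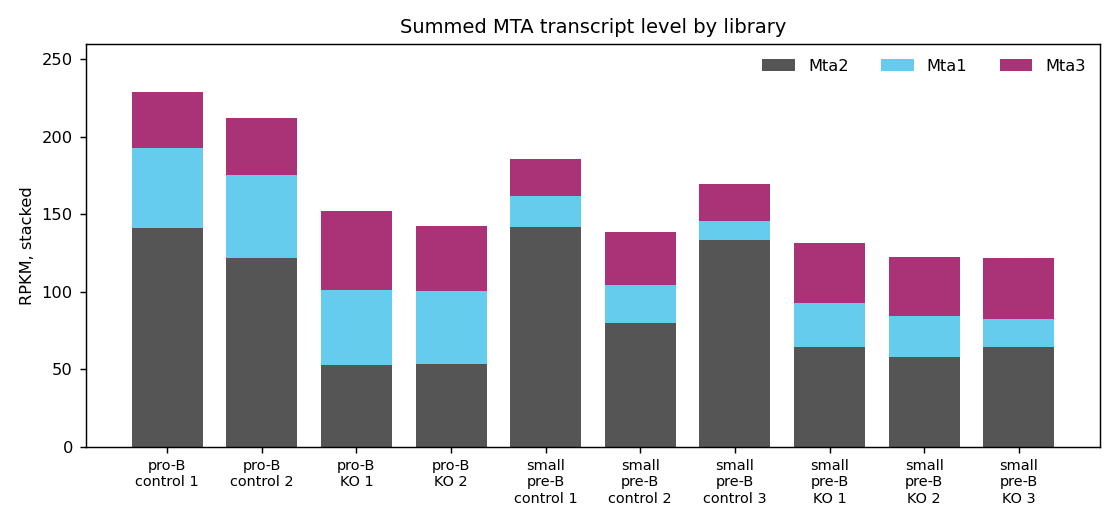
Stacked RPKM of Mta1, Mta2 and Mta3 (y axis, from 0) in each of the 10 libraries. Within each cell type knockout stacks are lower than control stacks, and their Mta3 part is larger. The Mta2 part is near 53.1 RPKM in pro-B and 62.3 RPKM in small pre-B knockouts.

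Between the stages, Mta1 differed most. In controls it was lower in small pre-B than in pro-B cells by a log2 fold change of -1.48 (SE 0.26, adjusted p = 0.0014, edgeR). In this comparison 26.0% of tested genes were called higher and 29.4% lower, so a call here was common. The knockout libraries showed a stage difference of -0.97 (SE 0.26, adjusted p = 0.013), where 24.0% of genes were called higher and 27.3% lower. It did not pass without pro-B knockout 1 (adjusted p = 0.0642) or pro-B knockout 2 (adjusted p = 0.0556). Mta3 stood at -0.44 in controls (SE 0.17, adjusted p = 0.0505), and without small pre-B control 2 at -0.64 (adjusted p = 0.0024). In knockouts its stage difference was -0.25 (SE 0.17, adjusted p = 0.244). For Mta2 the stage differences were -0.15 in controls (SE 0.21, 95% interval -0.63 to 0.33, adjusted p = 0.566) and 0.23 in knockouts (SE 0.21, 95% interval -0.25 to 0.71, adjusted p = 0.397). Without small pre-B control 2 the first turned to 0.08. Cell type and any shared handling of the libraries of a cell type cannot be told apart, and the pro-B libraries also carried more RNA of the myeloid, T, NK and plasmacytoid dendritic markers given above.

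The rest of the NuRD complex was described as a list of 15 genes, all tested, that includes the paralogues. In pro-B knockouts none was called by edgeR, and Mta2 was the 1 gene called by DESeq2 and by limma-voom. An unadjusted p under 0.05 was found for 2, and for 913 of all 14161 tested genes. The median log2 fold change was -0.01, as over all genes (-0.01). In small pre-B knockouts Mta2 fell, and the other 14 did not pass. The median was 0.23, against 0.01 over all genes. An unadjusted p under 0.05 was found for 6 of the 15, and for 3495 of all 14161 tested genes. Among the 12 subunits other than the paralogues none was called, with 4 at an unadjusted p under 0.05, a median of 0.18 and a smallest adjusted p of 0.0734. Limma-voom called 0 of these 12, and DESeq2 called Chd3 and Cdk2ap1 higher and Chd5 lower. Over all tested genes limma-voom called 437 and DESeq2 1869 in this comparison.

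These 4 were Chd5, Cdk2ap1, Chd3 and Gatad2a. Chd3, a remodelling ATPase, had 363 ± 138 CPM in small pre-B controls and 607 ± 47.9 in knockouts (SD, n = 3), with a log2 value of 0.74 (adjusted p = 0.0961), and its pro-B value was 0.53 (adjusted p = 0.90). It was called with DESeq2 in small pre-B cells and, in pro-B cells, when those 4 libraries were fitted alone. Cdk2ap1, a small subunit that binds the complex, was at 8.87 ± 3.08 and 15.9 ± 1.67 CPM (SD, n = 3), a value of 0.84 (adjusted p = 0.0777). Chd5, a remodelling ATPase best known from neurons and testis, was near the detection limit at 0.912 ± 0.635 and 0.180 ± 0.0611 CPM (SD, n = 3), a value of -2.33 (adjusted p = 0.0734). Gatad2a, which bridges the deacetylase and remodelling parts, had 0.26 (adjusted p = 0.169). Without control 2 all 4 passed, at 1.08 for Chd3, 1.15 for Cdk2ap1, -2.48 for Chd5 and 0.37 for Gatad2a. In that fit 1667 of the tested genes were called, against 428 with all libraries. Without control 3 the 4 values were 0.53, 0.65, -1.60 and 0.22 and did not pass. Without knockout 1 or knockout 2 none passed.

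Between the stages 4 of the 15 NuRD genes were lower in small pre-B controls and none higher by edgeR, where 29.4% of all tested genes were lower and 26.0% higher, so the count of lower genes was near that of genes at large. The unadjusted p was under 0.05 for 6 of the 15, and for 8681 of all 14161 tested genes. DESeq2 and limma-voom each called 5 lower and none higher. The 4 were Mta1, the histone chaperone Rbbp7 (-0.84), the methyl-CpG-binding protein Mbd2 (-0.44) and Cdk2ap1 (-0.71). In the knockouts Mta1, Chd5 (-2.56) and Rbbp7 (-0.62) were lower (27.3% of all genes), and Chd3 (0.71), the main remodelling ATPase Chd4 (0.38), Hdac2 (0.43) and Rbbp4 (0.56) higher (24.0% of all genes), in small pre-B cells. Whether the stage difference itself differed with genotype is the difference of the knockout effects. For it no NuRD gene passed by edgeR (smallest adjusted p 0.533) or limma-voom, and Chd5 passed by DESeq2. An unadjusted p under 0.05 was found for 1 of the 15, and for 907 of all 14161 tested genes.

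**Figure D4:**
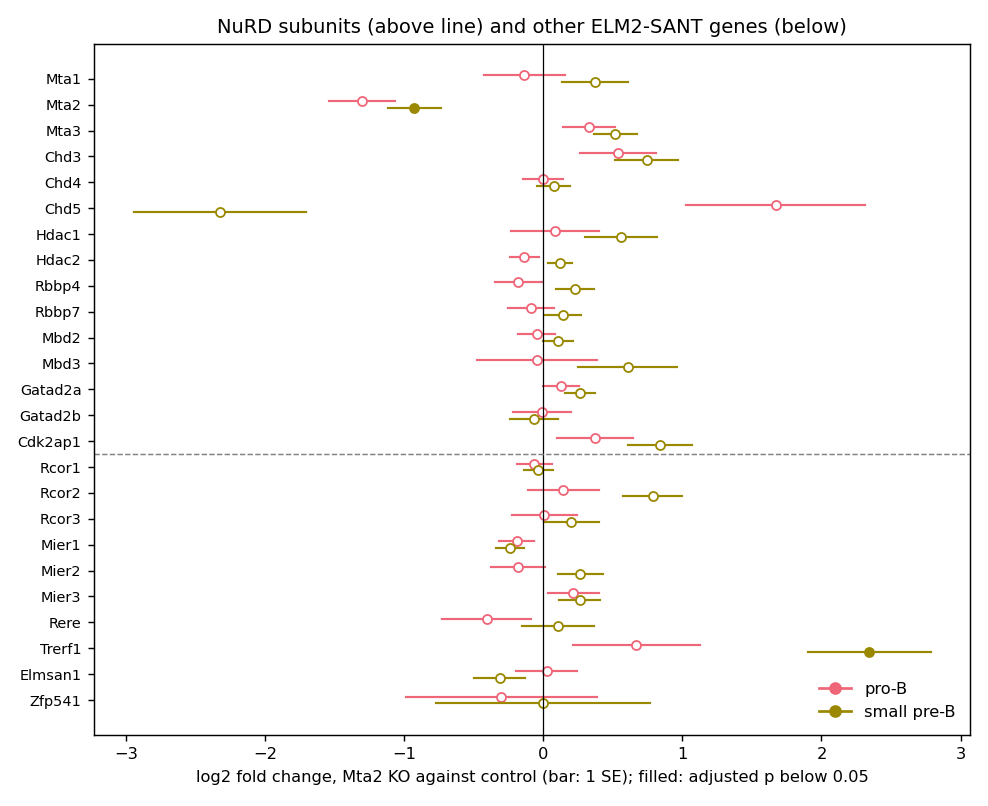
Fitted log2 fold change in pro-B and small pre-B knockouts against their controls (x axis) of the 15 NuRD genes, above the dashed line, and the 10 other ELM2-SANT genes, below it, with bars of 1 SE and filled points at an adjusted p below 0.05. Mta2 has the values -1.31 and -0.93, and Mta3, Chd3 and Cdk2ap1 lie between 0.33 and 0.84 in both cell types.

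Other proteins that, like MTA proteins, hold an ELM2 and a SANT domain and bind class I deacetylases formed a second list of 10 genes, all tested. In pro-B knockouts none was called by edgeR, DESeq2 or limma-voom or had an unadjusted p under 0.05 (median -0.03). In small pre-B knockouts Trerf1, a transcriptional regulating factor with these domains, rose, by all 3 tools, and the other 9 did not pass by edgeR. The median of the 10 was 0.16. An unadjusted p under 0.05 was found for 3 of them, and for 3495 of all 14161 tested genes. Trerf1 had 0.613, 1.53 and 0.398 CPM in small pre-B controls and 3.92, 5.85 and 2.98 in knockouts. Its knockouts all lay above the controls, as for 13.3% of tested genes, and the fitted log2 value was 2.34 (adjusted p = 0.0347). It was 3.13 without control 2 (adjusted p = 0.00221) and 1.94 without control 3 (adjusted p = 0.0451), and it did not pass without any one of the other 8 libraries (adjusted p of 0.0515 to 0.0988). In pro-B cells, where it was far higher, Trerf1 had 19.6 and 19.1 CPM in controls and 30.5 and 31.0 in knockouts (log2 fold change 0.67, adjusted p = 1). The corepressor Rcor2, a partner of the demethylase LSD1, had 0.79 in small pre-B cells (adjusted p = 0.0747, called by DESeq2), and Mier1 had -0.24 (adjusted p = 0.193). Between the stages 5 of the 10 were higher and 3 lower in small pre-B controls, against 26.0% and 29.4% of all tested genes, among them Mier1 (1.10) and Rere (1.10) higher and Trerf1 (-4.53) and Rcor3 (-1.55) lower. The knockouts had 5 higher and 3 lower, against 24.0% and 27.3% of all genes.

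The genes beside each member on the chromosome were read for comparison, 5 tested genes on each side. The farthest lay 352359 bases from Mta1, 919997 from Mta2 and 2641078 from Mta3. Over all 14161 tested genes an unadjusted p under 0.05 was found for 913 in pro-B and 3495 in small pre-B cells. Beside Mta2 none of 10 was called by edgeR, DESeq2 or limma-voom in either cell type (1 in pro-B and 2 in small pre-B cells at an unadjusted p under 0.05), with median log2 fold changes of 0.04 in pro-B and 0.12 in small pre-B cells. The nearest were Eml3, which ends 338 bases before Mta2 (0.26 in pro-B, adjusted p = 1, and 0.08 in small pre-B cells, adjusted p = 0.802), and Tut1, which starts 1550 bases after it (0.11 and 0.10). Beside Mta1 none of 10 was called by edgeR or limma-voom (0 in pro-B and 5 in small pre-B cells at an unadjusted p under 0.05, with 2 of the latter called by DESeq2), the nearest being Tex22 and Crip2 (0.78 in small pre-B cells, adjusted p = 0.173). Tex22 had 0.686 ± 0.679 CPM in small pre-B controls (SD, n = 3) and no count in the knockouts (edgeR adjusted p = 0.105). Beside Mta3, whose nearest neighbours were Cox7a2l and Haao, 1 of 10 was called by edgeR in small pre-B cells, where 1.89% of all genes were called higher. It was Pkdcc, a secreted tyrosine kinase gene that ends 481094 bases before Mta3. Pkdcc was at 0.282 ± 0.246 CPM in controls and 2.39 ± 0.555 in knockouts (SD, n = 3, log2 fold change 3.10, adjusted p = 0.0254). Its value was 4.13 without control 2, 2.60 without control 3 and 2.89 without knockout 3, and it did not pass without any one of the other 7 libraries (adjusted p of 0.0582 to 0.0825). Of these 10 genes 4 had an unadjusted p under 0.05, DESeq2 called 1 higher and 2 lower, and limma-voom called Pkdcc.

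The genes whose log2 CPM followed each paralogue most closely over the 10 libraries were taken among 11384 genes, as a description. The libraries share 2 cell types, so these values largely rank genes by group level. For Mta1 they were Mettl1 (Pearson r = 0.990), Smtn (0.988) and Dctd (0.987), and for Mta2 Mpv17 (0.949), Acad10 (0.946) and Igsf9 (0.938). For Mta3 they were Cdk2ap1 (0.977), Mast1 (0.970) and Tlr12 (0.964). Cdk2ap1 had 14.6 and 14.4 CPM in pro-B controls, 20.3 and 17.3 in pro-B knockouts, 7.69, 12.4 and 6.56 in small pre-B controls and 17.7, 14.5 and 15.4 in small pre-B knockouts. Cdk2ap1 was picked for following Mta3 over these same libraries, so its likeness to Mta3 follows from the choice. Its knockout libraries lay above the controls, as for 27.4% of tested genes in pro-B and 13.3% in small pre-B cells. Small pre-B control 2 was the highest control of its group.

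Small pre-B control 2 had the lowest Mta2 and the highest Mta1 and Mta3 of its group, in each case towards the knockout level. Its Mta2 share of the summed MTA RNA was 57.6%, against 76.5% and 78.9% in controls 1 and 3 and 47.4% to 52.6% in the knockouts.

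**Figure D5:**
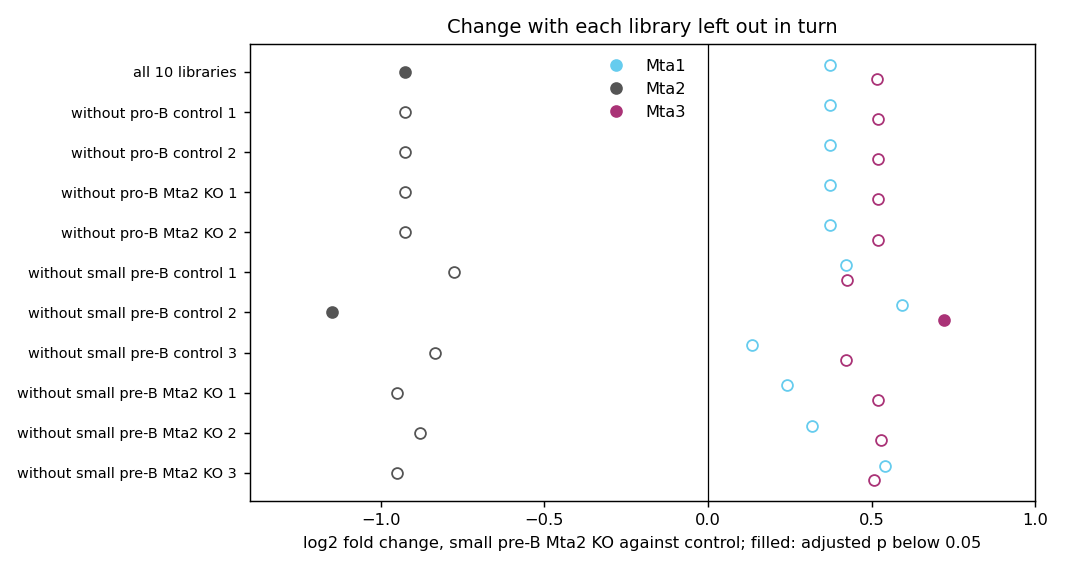
Fitted log2 fold change of each paralogue in small pre-B knockouts against controls (x axis) with all libraries and with each of the 10 left out in turn (y axis), where filled points had an adjusted p below 0.05. Mta2 values run from -1.15 to -0.78 and those of Mta3 from 0.42 to 0.72, and each set lies farthest from 0 without small pre-B control 2.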

How the data were processed

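RNA of 10 libraries was sequenced on an Illumina instrument after a stranded mRNA kit, per the labels' protocols. The authors deposited raw read counts per gene, 1 library per file, made with featureCounts 1.4.3-p1 over exons of an mm10 annotation with no strand option, per the file headers. The submitters' processing notes also name CASAVA 1.82, STAR and mm9. The exon length deposited in the files was used for RPKM. No column was left unused (0).

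Groups came from the titles. Counts were tested with edgeR 4.0.16 (R 4.3.3): filterByExpr by group (minimum count 10, minimum total 15), TMM scaling, 1 mean for each of the 4 groups over all 10 libraries, robust quasi-likelihood F-tests, and Benjamini-Hochberg adjustment over all 14161 genes (calls at 0.05). CPM values use TMM library sizes, and fitted fold changes use a prior count of 0.125. Intervals of fold changes use the fit's degrees of freedom. Alternatives were limma 3.58.1 (voom), DESeq2 1.42.0, other scalings and filters, the compared groups alone, a replicate block, and each library left out.

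The paralogues and all gene lists were chosen with earlier results of these data known. Named were the 3 paralogues, every NuRD or ELM2-SANT gene that passed and up to 4 others with the smallest p, the nearest neighbour on each side and any that passed, and the 3 best correlated genes of each paralogue with a mean of at least 2 CPM (log2 with a prior count of 2). Samples of the OcaB and double knockouts, and of pre-B cells, were not analysed here. One B-lineage marker of the list is not reported here and was left out of its sum.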

Additional observations from a re-analysis of the deposited data

Results flagged for a closer look

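The 15 NuRD genes, the 10 ELM2-SANT genes and the 10 neighbours of each paralogue were searched for opposite directions in the 2 cell types. For 2 of them, both NuRD genes, control and knockout libraries separated in opposite directions. This was so for 344 of the 14161 tested genes (2.43%). Chd5 was at 0.345 ± 0.106 CPM in pro-B controls and 1.11 ± 0.175 in pro-B knockouts (SD, n = 2), but at 0.912 ± 0.635 in small pre-B controls and 0.180 ± 0.0611 in small pre-B knockouts (SD, n = 3). The difference of the effects was -4.00 on the log2 scale (SE 0.90) and did not pass over all genes (adjusted p = 0.533, edgeR's quasi-likelihood test), though Chd5 was among the 58 genes called by DESeq2. Mbd3, the methyl-CpG-binding-domain protein of the complex, was at 118 ± 1.08 and 114 ± 3.70 CPM in pro-B controls and knockouts (SD, n = 2) and at 82.7 ± 43.3 and 126 ± 9.25 in small pre-B controls and knockouts (SD, n = 3). In pro-B cells the Mbd3 groups were barely apart, with 117.4 CPM in the lowest control and 116.9 in the highest knockout (log2 fold change -0.05). The difference of the Mbd3 effects was 0.65 (SE 0.56, adjusted p = 0.819, edgeR), and small pre-B control 3, at 33.2 CPM, was the lowest library. Without control 3 the difference was 0.27 for Mbd3 (adjusted p = 0.743) and -3.28 for Chd5 (adjusted p = 0.395).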

How the results depend on the processing

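Of 261 values of the paralogues under the alternatives, 235 kept their direction and side of the threshold, 12 passed where they had not, 13 no longer passed and 1 reversed. Mta2 in pro-B knockouts passed with DESeq2 (-1.30), limma-voom (-1.30) and the compared groups alone (-1.31), and ranged from -1.41 to -1.19 with a library left out. Mta2 in small pre-B knockouts did not pass with the compared groups alone (-0.93) and ranged from -1.15 to -0.78 with a library left out, passing in 1 of these. Over its 18 alternatives adjusted p ran from 0.000414 to 0.149. Mta3 in small pre-B knockouts passed with DESeq2 (0.50) and ranged from 0.42 to 0.72 with a library left out. The stage difference of Mta3 in controls passed with RLE scaling (-0.46), upper-quartile scaling (-0.47), DESeq2 (-0.46), limma-voom (-0.46) and no count filter (-0.45), and ranged from -0.64 to -0.34. That of Mta2 ranged from -0.30 to 0.0757, reversed without small pre-B control 2 (0.0757), and that of Mta1 in knockouts from -1.10 to -0.80. The log2 ratio of Mta3 to Mta1 in pro-B knockouts was -0.0554 per length and 0.0852 with no length. The cause of these changes was not tested. Leaving out libraries for the RPKM differences, the list and neighbour genes and the T-cell markers was chosen after seeing the data.

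The 5 genes called in pro-B knockouts became 182 with DESeq2, 148 with limma-voom, 8 with no filter, 8 with a filter of 1 CPM and 856 with the groups alone, and 0 to 25 with a library left out. The 428 in small pre-B knockouts became 1869 with DESeq2 and 0 with the groups alone. With a library left out they ran from 1 (without small pre-B control 1) to 1667 (without small pre-B control 2). The 0 for the difference of effects became 58 with DESeq2 and 0 to 40, and the 7262 of the stage difference in knockouts 4673 to 8657. NuRD genes called higher in pro-B knockouts were 1 with the groups alone, and those called lower 1 with DESeq2, 1 with limma-voom, 1 with the groups alone and 0 to 1 with a library left out. In small pre-B knockouts those called higher were 3 with DESeq2 and 0 to 4, and those called lower 2 with DESeq2, 0 with the groups alone and 0 to 2.

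Control and knockout titles share numbers, but the labels do not say what a number marks, so the samples were not treated as paired. Deviations from group means correlated at 0.0147 for same-numbered pro-B libraries and at 0.102, 0.155 and 0.0449 in small pre-B cells, where each library correlated best with its own number. With the replicate block Mta2 in small pre-B knockouts was -0.88 (adjusted p = 0.0587), the genes called numbered 0 in pro-B and 153 in small pre-B knockouts, and the NuRD genes called lower in small pre-B knockouts numbered 0.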
